A study of Oreochromis mossambicus with 6 samples.

Results

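Transcripts of the prolactin (Prl) and growth hormone (Gh) receptors and of their ligands were examined in the gill filaments of hypophysectomized tilapia. The members were the genes whose symbol in the deposited count table reads prlr or begins so, or reads ghr, ghra, ghrb, prl, prl2, gh1 or smtla. This rule found 7 of 32591 genes, namely 3 receptors (prlr, prlr2 and ghr) and 4 ligands (prl, prl2, gh1 and smtla). Genes are called by the table's symbols, which were not matched here to the names used elsewhere for tilapia Prl isoforms and their receptors. The oPrl group held 3 fish injected with ovine Prl (oPrl) at 5 μg per g body weight, and the vehicle group held 3 fish injected with saline. All 6 were wild type male Mozambique tilapia, of 80 to 110 g by the deposited description, with the pituitary removed through the orbit, so neither group was intact. Each recovered for 5 days in brackish water at 12 ppt, received 3 injections 48 h apart without being fed, and was sampled 24 h after the last. Loss of the pituitary removes all of its hormones, and completeness of the surgery was judged by inspection after death.

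Prl, Gh and somatolactin are related pituitary hormones. They act through class I cytokine receptors, single-pass membrane proteins without a kinase of their own, which pass the signal to the kinase Jak2 and to Stat factors and are curbed by Socs and Cish proteins. In euryhaline fishes Prl is the hormone of freshwater life, and the gill is a main target. Teleosts carry a pair of Prl receptors. The injected hormone is a sheep protein and brings no transcript of its own to these libraries. Where the prl reads came from was not tested.

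Libraries held 30516271 to 32959492 counts on genes with oPrl and 21643589 to 35976655 with vehicle. Values are given as CPM, counts scaled to a library size common to all fish by edgeR's TMM method. A positive log2 fold change means a higher level with oPrl. Of the 7 members, 4 (prlr, prlr2, ghr and prl) had at least 10 counts over all libraries and were tested among 24878 genes with edgeR's quasi-likelihood test. A gene was called where its log2 fold change exceeded 1 in size and its adjusted p lay under 0.01, which 1.4% of the tested genes met. None of the 4 tested members was called, although 3 had an unadjusted p under 0.05 in edgeR, compared with 21.7% of all genes. DESeq2 called 1 of them, prl, and 7.16% of the genes to which it gave an adjusted p. That gene passed the filter on low counts only through the vehicle fish. Gill epithelium was well represented. All 18 genes of a list of gill epithelial and ionocyte markers were tested. In edgeR 0 of them were called, 7 having an unadjusted p under 0.05, and DESeq2 called 3. The gene epcam, an epithelial adhesion molecule, had 1318, 1744 and 1340 CPM with oPrl and 2371, 2278 and 1611 CPM with vehicle. The summed level of that list was 9566 to 12338 CPM with oPrl and 16727 to 17391 CPM with vehicle. Abundant genes weigh most in this sum, and krt5 alone averaged 3736 CPM with oPrl and 6563 CPM with vehicle. The markers did not all move alike. The groups did not overlap in 5 of them lower with oPrl and in 1 higher, atp6v1ab (log2 fold change 0.83), against 12.7% and 16.3% of all genes. Whether the difference in the sum had a part in the receptor values was not tested. In whole filaments fewer cells of a type cannot be told apart from less RNA per cell.

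Both Prl receptors were transcribed in the gill of every fish. The receptor prlr (ENSONIG00000007715) had 1991, 2339 and 2356 counts in oPrl fish and 1428, 1573 and 704 counts in vehicle fish. These counts corresponded to 58.9, 71.8 and 66.6 CPM with oPrl, against 57.8, 44.7 and 35.8 CPM with vehicle. Every oPrl fish thus lay above every vehicle fish, but oPrl replicate 1 and vehicle replicate 1 were nearly level. Such a separation with higher values under oPrl was seen in 16.3% of all genes tested. The group means were 65.8 ± 6.51 CPM in oPrl fish and 46.1 ± 11.1 CPM in vehicle fish (SD, n = 3 each). The edgeR log2 fold change for prlr was 0.51, standard error 0.2 (95% interval 0.04 to 0.99), a 1.43-fold difference that was not called (adjusted p = 0.199). DESeq2 gave 0.48 and did not call it either (adjusted p = 0.175). The edgeR interval included 0 without oPrl replicate 2 or 3 or vehicle replicate 2 or 3. Vehicle fish spread more widely than oPrl fish, with a 1.61-fold range compared with 1.22-fold.

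**Figure D1:**
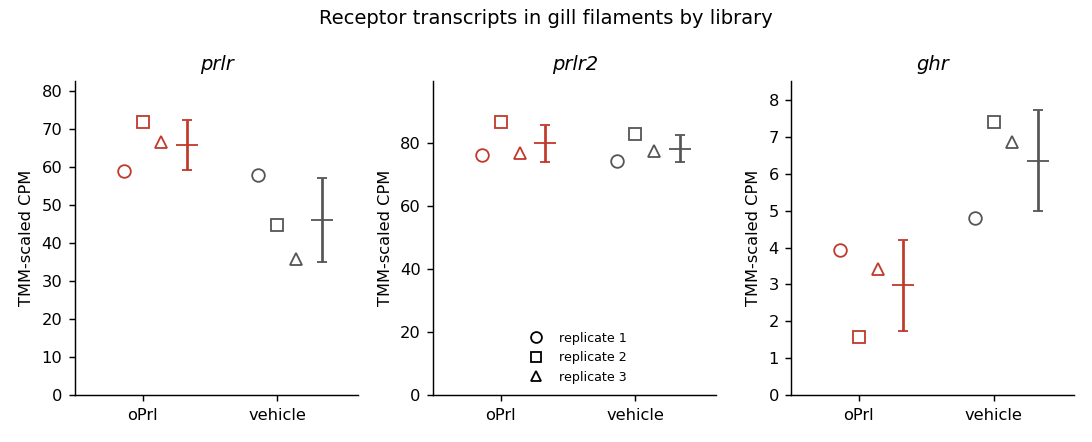
Levels of prlr, prlr2 and ghr in gill filaments of oPrl- and vehicle-injected fish, in TMM-scaled CPM on axes that start at 0. Open symbols are single fish and the bars beside them give the mean and SD (n = 3). For prlr the oPrl fish lie between 58.9 and 71.8 CPM and the vehicle fish between 35.8 and 57.8 CPM, whereas the groups overlap for prlr2.

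No difference was detected in the second receptor, prlr2 (ENSONIG00000032493), for which the interval was narrow. It had 2578, 2826 and 2718 counts in oPrl fish and 1839, 2925 and 1522 counts in vehicle fish, or 76.3, 86.8 and 76.9 CPM with oPrl and 74.5, 83.1 and 77.4 CPM with vehicle. On this scale the groups overlapped, and replicate 2 was the highest fish of each. Levels averaged 80 ± 5.91 CPM in oPrl fish and 78.3 ± 4.4 CPM in vehicle fish (SD, n = 3 each). The estimate from edgeR was a log2 fold change of 0.03, standard error 0.13 (adjusted p = 0.928). Its 95% interval of -0.29 to 0.34 corresponds to a level with oPrl of between 0.821 and 1.27 times that with vehicle. With library totals in place of TMM the groups did not overlap, at 84.5, 85.7 and 84.1 CPM in oPrl fish and 70, 81.3 and 70.3 CPM in vehicle fish. The log2 fold change was then 0.2 (adjusted p = 0.388, edgeR), and under that scaling the median of all genes was itself 0.19. Of the receptors tested, prlr2 varied least from fish to fish, with a coefficient of variation of 7.39% in oPrl fish and 5.61% in vehicle fish. For prlr these values were 9.9% with oPrl and 24% with vehicle.

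The balance of the receptor pair was compared within each library, where scaling between libraries plays no part. Of the reads on either receptor, prlr took 43.6%, 45.3% and 46.4% in oPrl fish and 43.7%, 35% and 31.6% in vehicle fish. The exact (Clopper-Pearson) 95% binomial intervals were 42.1% to 45% for the lowest oPrl fish, 42% to 45.4% for vehicle replicate 1 and 29.7% to 33.6% for vehicle replicate 3. They cover counting error only. Vehicle replicate 1 therefore lay within the range of the oPrl fish, while vehicle replicates 2 and 3 lay below every oPrl fish by more than counting error. Expressed as prlr2 over prlr, the count ratio was 1.22 ± 0.0712 with oPrl and 1.77 ± 0.444 with vehicle (SD, n = 3 each). On the log2 scale the difference was -0.51 (exact permutation test, two-sided, p = 0.2, where 3 fish against 3 allow no p under 0.1). It was -0.72 without vehicle replicate 1 and -0.35 without vehicle replicate 3. Gene lengths were not used here, so these ratios compare libraries with one another and do not say which receptor was the more abundant. Reads that fit both receptors equally would be missing from counts of unique reads.

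**Figure D2:**
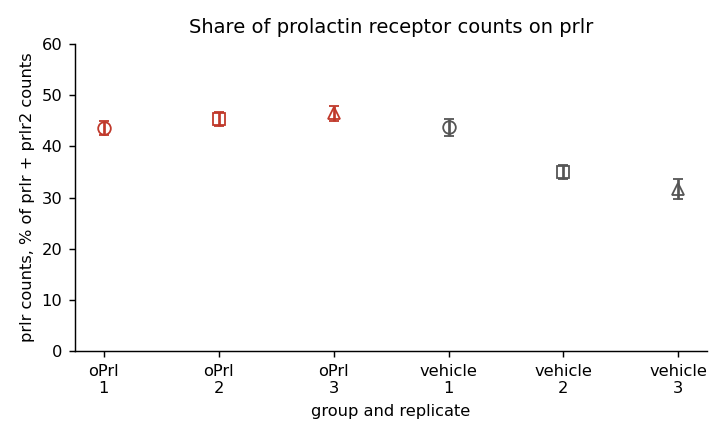
Share of the counts on both Prl receptors that fell on prlr, in percent, for each library. Bars are exact 95% binomial intervals. The oPrl fish lie between 43.6% and 46.4%. Vehicle replicate 1, at 43.7%, lies among them, and vehicle replicates 2 and 3 lie at 35% and 31.6%.

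For the Gh receptor ghr (ENSONIG00000012787), every oPrl fish lay below every vehicle fish in CPM. Its counts were 133, 51 and 121 in oPrl fish and 119, 261 and 135 in vehicle fish, which gave 3.93, 1.57 and 3.42 CPM with oPrl, against 4.82, 7.42 and 6.87 CPM with vehicle. Such a separation with lower values under oPrl was seen in 12.7% of all genes tested. Mean levels were 2.97 ± 1.25 CPM in oPrl fish and 6.37 ± 1.37 CPM in vehicle fish (SD, n = 3 each). For ghr the log2 fold change came to -1.10, standard error 0.39 (95% interval -2.01 to -0.18), and it was not called (adjusted p = 0.159, edgeR). DESeq2 gave -1.13 and an adjusted p of 0.0419, above the threshold of 0.01 as well. The lowest fish was oPrl replicate 2, and its omission gave -0.79 (adjusted p = 0.2, edgeR).

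A second Gh receptor gene in the table, ghr1 (ENSONIG00000015182), fell outside the rule and is given for comparison. It had 65, 8 and 65 counts in oPrl fish and 32, 50 and 15 counts in vehicle fish. Fish of the 2 groups overlapped (log2 fold change 0.2, standard error 0.71, adjusted p = 0.909, edgeR). The level of ghr1, like that of ghr, was lowest in oPrl replicate 2, at 0.246 CPM, whereas oPrl replicates 1 and 3 had 1.92 and 1.84 CPM.

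**Figure D3:**
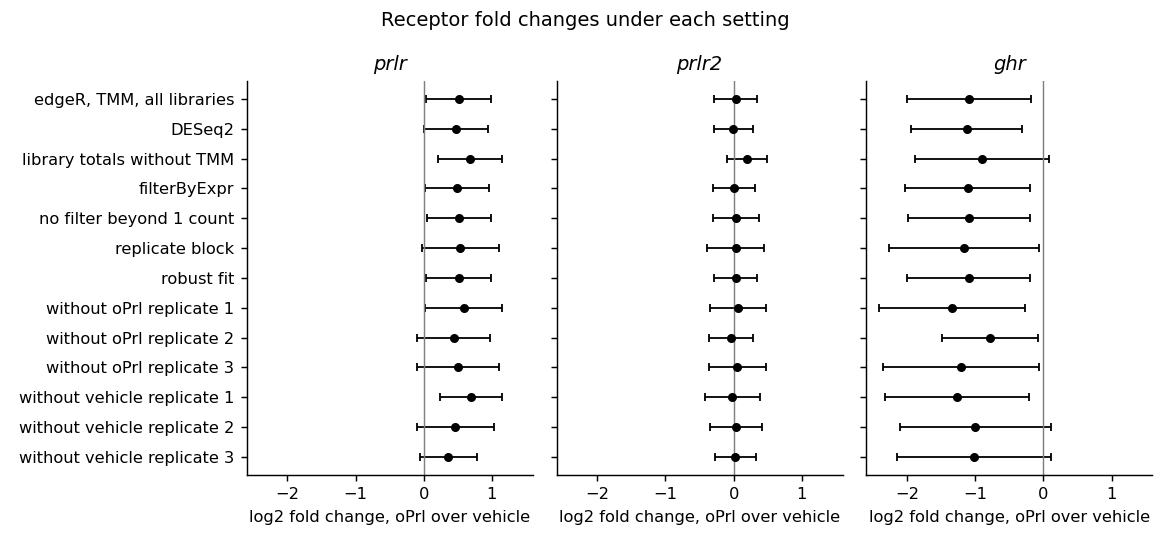
Log2 fold changes of prlr, prlr2 and ghr, oPrl over vehicle, under each normalization, filter and tool and after omission of single libraries. Points are estimates and bars 95% intervals. All estimates of prlr lie above 0, between 0.36 and 0.7, those of ghr lie between -1.35 and -0.79, and those of prlr2 lie around 0. The interval of prlr includes 0 with the replicate block and without oPrl replicate 2 or 3 or vehicle replicate 2 or 3. That of ghr includes 0 with library totals and without vehicle replicate 2 or 3.

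Ligand transcripts were rare in these filaments and nearly all of them were prl (ENSONIG00000006467), which encodes the pituitary hormone Prl. The 4 ligands together had 195 counts over the 6 libraries, of which prl took 96.9%. There were 0, 0 and 2 counts of prl in oPrl fish and 54, 129 and 4 counts in vehicle fish. In CPM these were 0, 0 and 0.0566 with oPrl, against 2.19, 3.67 and 0.204 with vehicle. Vehicle replicates 1 and 2 held 97.9% of the vehicle counts, and vehicle replicate 3 lay far below both. Exact 95% Poisson intervals, which cover counting error only, ran from 0.00685 to 0.204 CPM for oPrl replicate 3 and from 0.0555 to 0.521 CPM for vehicle replicate 3, so these fish were not distinguishable at this depth. The intervals of vehicle replicates 1 and 2 were 1.64 to 2.85 CPM and 3.06 to 4.36 CPM. In the oPrl fish with no count, 3 counts would have been 0.0887 CPM in replicate 1 and 0.0921 CPM in replicate 2.

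Pooled over fish, the ratio of prl with oPrl to prl with vehicle was 0.00836, with an exact 95% counting interval of 0.00101 to 0.0306 that leaves out the spread between fish. The fitted log2 fold change of -6.43 rests on 2 counts in the oPrl group and has a 95% interval of -9.62 to -3.24 (adjusted p = 0.0377, edgeR, not past 0.01). At an adjusted p under 0.05 it would be past, as were 6.11% of all genes tested (2.83% with a lower level under oPrl). The adjusted p from DESeq2 was 7.42e-05. Since prl was tested only because vehicle fish had counts, neither p is independent of that filter. Without vehicle replicate 3 the adjusted p from edgeR was 0.0199, and without any other library it was between 0.0943 and 0.112.

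The other ligands were at or near 0 everywhere. The gene prl2 (ENSONIG00000014183), named as a second Prl, had 2 counts in vehicle replicate 1, 1 in vehicle replicate 2 and 0 in the other libraries. Growth hormone, gh1 (ENSONIG00000009191), had 1 count, in vehicle replicate 3. Somatolactin alpha, smtla (ENSONIG00000005357), had 1 count each in oPrl replicates 1 and 3 and 0 elsewhere. No fitted fold change is given for these 3 genes, since both groups lay at or under 3 counts. In log2(CPM + 0.5), the sum of the 4 ligands averaged -0.90 ± 0.11 with oPrl and 1.04 ± 1.29 with vehicle (SD, n = 3 each). The difference of -1.94 followed prl and depended on the added constant, being -4.09 with 0.05 CPM. Leaving out a library gave -2.67 without vehicle replicate 3 to -1.43 without vehicle replicate 2. With all libraries it had the smallest p that 3 fish against 3 allow (exact permutation test, two-sided, p = 0.1).

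**Figure D4:**
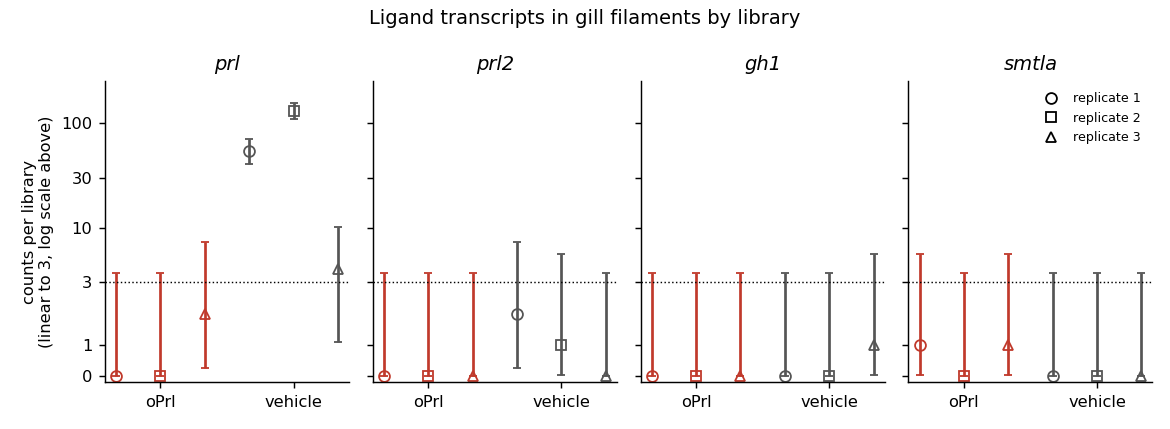
Counts of prl, prl2, gh1 and smtla per library, on an axis that is linear up to 3 counts and logarithmic above. Bars are exact 95% Poisson intervals and the dotted line marks 3 counts. Only prl in vehicle replicates 1 and 2, at 54 and 129 counts, stands clear of that line.

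Markers of pituitary tissue were looked at beside prl. Of 21 genes on the pituitary list, 12 had enough counts to be tested and edgeR called 0 of them, 3 having an unadjusted p under 0.05, and DESeq2 called 0. Over all genes these shares were 1.4%, 21.7% and 7.16%. The groups did not overlap in 1 of the 12 lower with oPrl, scg5, and in 1 higher, pitx1, against 12.7% and 16.3% of all genes. The summed level of the list was 53.1 to 60.6 CPM with oPrl and 68.3 to 74.1 CPM with vehicle. Most of it came from hesx1, a homeobox factor, and cpe, a prohormone-processing carboxypeptidase, with log2 fold changes of -0.25 and -0.39 (adjusted p = 0.426 and 0.441, edgeR), and next came pitx1, another homeobox factor, at 0.89 (adjusted p = 0.229). Among genes of hormone granules, scg5 had 25, 22 and 43 counts in oPrl fish and 76, 59 and 38 counts in vehicle fish, without overlap in CPM (log2 fold change -1.34, adjusted p = 0.124, edgeR), the smallest p of the list. Estimates for scg3 and pcsk2, also of such granules, were -0.93 (adjusted p = 0.242) and -0.98 (adjusted p = 0.387), with overlapping groups. Other granule genes did not fall alike, with scg2b at -0.14 (adjusted p = 0.93, edgeR) and pcsk1 at 0.34 (adjusted p = 0.765), again with overlapping groups. Of 27 genes on a list of nerve markers, 14 were tested. In edgeR 0 of them were called and DESeq2 called 1, the myelin gene plp1b, against 1.4% and 7.16% over all genes. It had 31, 4 and 15 counts with oPrl and 83, 100 and 55 counts with vehicle (log2 fold change -2.61, adjusted p = 0.0608, edgeR, and adjusted p = 0.000503 in DESeq2). On that list the groups did not overlap in 3 genes lower with oPrl, plp1b included, and in 1 higher, gap43 (1.27, adjusted p = 0.164, edgeR). Over all genes these shares were 12.7% and 16.3%. Another myelin gene, mbpb, was at -0.0072 (adjusted p = 0.992, edgeR). The myelin genes mpz, plp1a and mbpa were at -0.88, -0.99 and -0.89 (adjusted p = 0.574, 0.668 and 0.601, edgeR), with overlapping groups. Whether cells carrying these transcripts had a part in the prl counts was not tested. Pituitary hormone genes had few counts. The factor pou1f1, which specifies the cells that make Prl, Gh and thyrotropin, had 1, 0 and 2 counts with oPrl and 0, 1 and 0 with vehicle. For cga, the shared glycoprotein hormone subunit, the counts were 0, 1 and 0 with oPrl and 0, 0 and 3 with vehicle. The gonadotropin subunit fshb had 1 count in all, in oPrl replicate 2, and lhb had 6, 2 and 0 with oPrl and 2, 1 and 0 with vehicle. The thyrotropin subunit tshba had 1, 2 and 1 counts with oPrl and 5, 0 and 2 with vehicle. POMC (ENSONIG00000039325), the precursor of corticotropin and melanotropin, had 0 counts in all oPrl fish and 5, 6 and 0 counts in vehicle fish. It passed the filter on low counts only through the vehicle fish and was named after its values were seen. Pooled over fish, the exact 95% counting interval of the ratio of oPrl to vehicle reached from 0 to 0.312, without the spread between fish. Neither this interval nor the edgeR test, which did not call the gene (adjusted p = 0.175), is independent of that choice and filter. DESeq2 gave it no adjusted p. A further gene with that symbol in lower case, pomc, had no counts.

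Genes around the receptors were read from the same fit over all genes, in 5 lists. Of 119 list genes outside the members, 103 were tested. Higher with oPrl were 2 called genes and lower was 1, while 0.715% of all genes were called higher and 0.687% lower. The groups did not overlap in 31 of the 103 (30.1%), compared with 29% of all genes. Their median log2 fold change was 0.01, against 0.02 for all genes tested. The shares without overlap and the medians were close, and the called genes lay far from the medians of their lists. Other measures lay further from those of all genes. An adjusted p under 0.05 in edgeR was found for 16 of the 103, against 6.11% of all genes. DESeq2 called 3 of them higher and 13 lower with oPrl. Over all genes it called 765 higher and 731 lower, together 7.16% of the genes to which it gave an adjusted p.

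**Figure D5:**
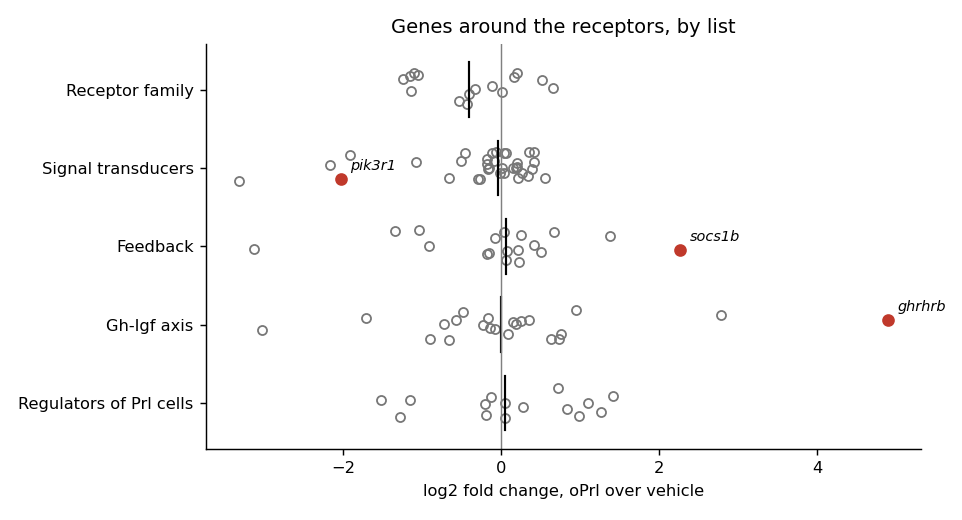
Log2 fold changes, oPrl over vehicle, of the tested genes in 5 lists around the receptors, ghr included. Each circle is a gene, filled where it was called, and black strokes are list medians. The called genes are pik3r1 at -2.03, socs1b at 2.27 and ghrhrb at 4.90.

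On a list of cytokine receptors, mostly of class I, edgeR called 0 of 15 genes with ghr included, although 7 had an unadjusted p under 0.05 and DESeq2 called 4. The list also holds il10ra and IL10RB, which are class II receptors. Over all genes the shares were 21.7% and 7.16%. The list median was -0.41, which is the value of IL10RB. The smallest p belonged to il13ra2, a decoy receptor for interleukin 13 in mammals, with 63.5 ± 8.74 CPM in oPrl fish and 131 ± 19.9 CPM in vehicle fish (SD, n = 3 each). In edgeR the log2 fold change was -1.05, standard error 0.18 (adjusted p = 0.0178). It was followed by il12rb2, an interleukin 12 receptor subunit, at -1.15 (adjusted p = 0.0252), and mpl, the thrombopoietin receptor, at -1.25 (adjusted p = 0.0324). In these 3 genes every oPrl fish lay below every vehicle fish, and DESeq2 called all of them. Of the 15 genes, 6 were separated in that direction and 1 in the other, against 12.7% and 16.3% of all genes tested. The erythropoietin receptor epor was at -1.14 (adjusted p = 0.0883, edgeR). DESeq2 called it (adjusted p = 0.00846), and its groups did not overlap.

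Downstream of the receptors, 34 signal transducers were tested and pik3r1, which encodes a regulatory subunit of phosphoinositide 3-kinase, fell. It had 176, 197 and 174 CPM in oPrl fish against 796, 746 and 688 CPM in vehicle fish (log2 fold change -2.03, standard error 0.14, adjusted p = 0.00132, edgeR). The groups were far apart and each was tight. The call was lost without oPrl replicate 1 (adjusted p = 0.0107, edgeR), oPrl replicate 3 (0.0151) or vehicle replicate 1 (0.0153), while its log2 fold change with a library left out stayed between -2.09 and -1.99. Against 7.16% of the genes to which it gave an adjusted p, DESeq2 called 5 genes of this list, all lower with oPrl. Besides pik3r1 these were irs2b and irs2a, which encode insulin receptor substrates, VAV3, a guanine nucleotide exchange factor, and stat4, a Stat factor. The level of irs2b was 19.9, 49.2 and 23.8 CPM in oPrl fish against 399, 370 and 157 CPM in vehicle fish. Its log2 fold change of -3.32 missed the threshold (adjusted p = 0.0111, edgeR), and the gene was called by edgeR with library totals and with no count filter. The edgeR estimate was -2.17 for irs2a (adjusted p = 0.0175), -1.91 for VAV3 (adjusted p = 0.0397) and -1.07 for stat4 (adjusted p = 0.015). Without vehicle replicate 3, irs2a and VAV3 were past the threshold (adjusted p = 0.00957 and 0.00815, edgeR), at -2.47 and -2.27. In all 5 genes the groups did not overlap. That was so for 10 of the 34 genes tested (29.4%), 3 of them higher with oPrl and 7 lower, against 29% of all genes. The gene vav3b (ENSONIG00000018535), of like name to VAV3, was at -0.01 (adjusted p = 0.977, edgeR), with overlapping groups. The kinase gene jak2a, which codes for the kinase that these receptors use, had 94.7, 86.2 and 98.7 CPM with oPrl and 149, 139 and 155 CPM with vehicle. Its groups did not overlap, but its log2 fold change of -0.66 was not past the threshold (adjusted p = 0.0326, edgeR). Its duplicate jak2b was at -0.07 (adjusted p = 0.838). The Stat factor most closely tied to Prl and Gh receptors in mammals, Stat5, was represented by stat5a at 0.4 (adjusted p = 0.219, edgeR). It was not called, but its groups did not overlap. The values were 60.2, 48.1 and 57.6 CPM with oPrl and 46.9, 42.5 and 36.5 CPM with vehicle. A separation in that direction was seen in 16.3% of all genes tested.

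Of 18 feedback genes tested, socs1b rose, with 93.9, 106 and 95.8 CPM in oPrl fish against 21, 15.9 and 24.6 CPM in vehicle fish (log2 fold change 2.27, standard error 0.19, adjusted p = 0.00284, edgeR). The call was lost without oPrl replicate 1 (adjusted p = 0.0134, edgeR), oPrl replicate 3 (0.0193), vehicle replicate 1 (0.0253) or vehicle replicate 2 (0.0114), at log2 fold changes of 2.30, 2.29, 2.26 and 2.08. Suppressors of cytokine signaling bind Jak kinases or their receptors and damp the signal. The gene socs3 had 35.2, 120 and 35.4 CPM with oPrl and 562, 549 and 547 CPM with vehicle. Its log2 fold change was not past the threshold with all libraries (-3.12, adjusted p = 0.0157, edgeR) and was past it without oPrl replicate 2, the highest oPrl fish (-3.97, adjusted p = 0.00112). DESeq2 called it with all libraries (adjusted p = 1.16e-09), along with CISH (0.000154) and socs1 (0.000115), all lower with oPrl. On this list DESeq2 called 1 gene higher with oPrl and 3 lower, against 7.16% of the genes to which it gave an adjusted p. A relative of socs3, socs3b, lay on the other side of 0, at 1.38 (adjusted p = 0.284), and was likewise highest in oPrl replicate 2. Estimates for the gene with the symbol CISH and the one with the symbol cish were -1.35 (adjusted p = 0.0351, edgeR) and -0.91 (adjusted p = 0.217), and that for socs1 was -1.04 (adjusted p = 0.029). At 0.25, socs2, a brake on Gh signaling in mammals, was not called either (adjusted p = 0.661).

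In the Gh and insulin-like growth factor axis, 22 genes were tested and ghrhrb, a receptor gene named for Gh-releasing hormone, rose. It had 119, 166 and 420 counts with oPrl and 3, 13 and 3 counts with vehicle, or 3.52, 5.1 and 11.9 CPM with oPrl, against 0.121, 0.369 and 0.153 CPM with vehicle. The log2 fold change from edgeR was 4.90, standard error 0.67 (adjusted p = 0.00887). With any single library left out it stayed between 4.25 and 5.58, but the adjusted p lay between 0.017 and 0.0474, so that each omission ended the call. A further gene, GHRHR (ENSONIG00000002118), is also named for Gh-releasing hormone. It had 101, 116 and 78 counts with oPrl and 44, 131 and 94 counts with vehicle. Its groups overlapped in CPM (log2 fold change -0.23, adjusted p = 0.807, edgeR). For igf1, the growth factor that Gh induces in liver, the counts were 168, 58 and 171 with oPrl and 13, 19 and 12 with vehicle. Its oPrl fish lay above all vehicle fish (log2 fold change 2.78, standard error 0.48), although the adjusted p of 0.0193 in edgeR was above the threshold. Without oPrl replicate 2, the lowest oPrl fish, igf1 was past it (adjusted p = 0.00738). DESeq2 called it with all libraries (adjusted p = 5.93e-06), and also IGFBP3, an Igf-binding protein, at an edgeR log2 fold change of -1.70 (adjusted p = 0.0467, edgeR). The gene with that symbol in lower case, igfbp3 (ENSONIG00000006363), lay on the other side of 0, at 0.76 (adjusted p = 0.355, edgeR), with overlapping groups. Of the 22 genes DESeq2 called 2 higher and 1 lower, against 7.16% of the genes to which it gave an adjusted p. The groups did not overlap in 4 genes of the list higher with oPrl, igf1 included, and in 3 lower, against 16.3% and 12.7% of all genes.

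Of 22 genes on a list of regulators of the cells that make Prl, 15 were tested and edgeR called 0, 2 having an unadjusted p under 0.05, and DESeq2 called 0. Over all genes these shares were 1.4%, 21.7% and 7.16%. The 2 genes with an unadjusted p under 0.05 shared the symbol adcyap1r1a, a receptor for the peptide Pacap. Their log2 fold changes were -1.52 (ENSONIG00000009271, adjusted p = 0.133, edgeR) and 1.10 (ENSONIG00000019468, adjusted p = 0.206). Next in order of p was prlhr2b, a receptor named for Prl-releasing peptide, with 2, 2 and 3 counts in oPrl fish and 6, 3 and 4 counts in vehicle fish (log2 fold change -1.28, adjusted p = 0.355, edgeR). Its low counts leave that estimate wide, with a standard error of 0.71.

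The genes most like the receptors over the 6 libraries were sought among 12764 genes with a symbol and a mean of at least 0.5 CPM, by Pearson's r of log2(CPM + 0.5). With so few libraries and so many genes, high values arise readily, and they are given as a description. Closest to prlr were ttc37, CNOT2, lig4, pikfyve and NRDC, with r of 0.993, 0.987, 0.985, 0.985 and 0.983. They encode a subunit of the RNA-degrading Ski complex, a subunit of the Ccr4-Not deadenylase, a DNA ligase, a phosphoinositide kinase and a metalloprotease. The range of ttc37 was 48.1 to 52.6 CPM with oPrl and 34.9 to 46 CPM with vehicle, narrower than that of prlr. Closest to prlr2 were myof, srd5a1, atp8b4, dctn4 and jtb, with r of 0.958 to 0.991. Among these, myof, which encodes a membrane repair protein, had 78.2, 160 and 75 CPM with oPrl and 67.2, 114 and 79.1 CPM with vehicle, so that replicate 2 was high in both groups as it was for prlr2. For the summed ligands the closest genes were sec31b, epb41l5, cdc14ab, mag and VAV3, with r of 0.988 to 0.999. All 5 had higher values in vehicle replicates 1 and 2 than in vehicle replicate 3. The last of them, VAV3, had 16.9, 13.1 and 16.7 CPM in oPrl fish, against 70.9, 79.9 and 24.7 CPM in vehicle fish.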

How the data were processed

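Total RNA of gill filaments from 6 fish was sequenced as paired reads. After adapter trimming (Trimmomatic 0.36), the authors aligned reads to the genome of another species, the Nile tilapia, with STAR 2.5.2b. They deposited raw counts, in which featureCounts tallied uniquely assigned reads. The genome release and strandedness were not given in the sources used here. One row without a gene ID (0.0901% to 0.135% of a library) was left out.

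Genes with at least 10 counts over all libraries were tested with edgeR 4.0.16 (TMM, quasi-likelihood test, Benjamini-Hochberg adjustment over all 24878 genes) in R 4.3.3. The same fit was run on simulated data and missed a sizeable part of the changed genes, so a gene not called may still differ. DESeq2 1.42.0 was an alternative and gave no adjusted p for 3981 genes. Single values were compared by exact permutation tests, with 0.5 added to counts in ratios and to CPM. Libraries of a group differed by more than sampling noise (chi-square per degree of freedom 26.3 to 98.6). The p-values of edgeR and DESeq2 set the group difference against the spread between fish, estimated with information from all genes. The exact binomial, Poisson and pooled intervals cover counting error only.

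The members and lists were chosen with earlier results of these data known. From each list, called genes were named, or the 3 with the smallest p where none was called, and from the pituitary list the 3 with most counts. The genes jak2a, jak2b, stat5a, socs2, socs3, socs3b, CISH, cish, socs1, irs2a, irs2b, stat4, VAV3, vav3b, igf1, IGFBP3, igfbp3, GHRHR, epor, ghr1, POMC, pou1f1, cga, fshb, lhb, tshba, scg3, scg5, scg2b, pcsk1, pcsk2, plp1b, mbpb, mpz, plp1a, mbpa, gap43, krt5 and atp6v1ab were chosen after their values were seen. List symbols were matched without case, with an optional final a or b. Sequences, lengths and coordinates were not used here.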

Additional observations from a re-analysis of the deposited data

How the results depend on the processing

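In edgeR no tested member was called with library totals, with either other filter on counts, with robust fitting or with any library left out, although prl had too few counts to be tested with edgeR's own filter. DESeq2, and an adjusted p under 0.05 with no fold threshold, each called 1, prl. Of the genes on the pathway lists, edgeR called 3, which became 5 without the count filter, 16 with DESeq2, 16 at an adjusted p under 0.05 with no fold threshold, and 0 to 4 with a library left out. Over all genes, edgeR called 349 of 24878, and 477 of 29477 without the count filter. DESeq2 called 7.16%, and 6.11% had an adjusted p under 0.05 in edgeR. The count on the pathway lists was 0 without oPrl replicate 1, oPrl replicate 3 or vehicle replicate 1 and 1 without vehicle replicate 2. Genes called in all numbered 349 with every library and 28, 5, 0 and 22 in these 4 fits. Fish with the same replicate number did not deviate together (r of -0.104, -0.064 and -0.00177), and the numbers were not taken as pairs. With the replicate number as a block, edgeR called 30 genes in all, 0 on the pathway lists and 0 members. The estimate of prlr2 changed sign to -0.0039 with DESeq2, -0.033 without oPrl replicate 2 and -0.02 without vehicle replicate 1 (range with a library left out -0.033 to 0.063). The estimate of ghr1 did so at -0.096 with the block, -0.16 and -0.10 without oPrl replicates 1 and 3 and -0.0084 without vehicle replicate 3 (range -0.16 to 0.69), and that of jak2b at 0.10 with library totals and 0.0063 without oPrl replicate 1 (range -0.15 to 0.0063). None of these was called, and the cause was not tested. The difference between oPrl and vehicle in the log2 ratio of prlr2 to prlr lay between -0.72 and -0.35, and that in the summed ligands between -2.67 and -1.43, with a library left out (exact permutation p of 0.1 to 0.3). On the block these values were -0.51 and -1.94 (exact sign-flip test, p = 0.5 and 0.25, where 3 pairs allow no p under 0.25). For the ligands a pseudocount of 0.05 CPM gave -4.09. For smtla alone the difference had the opposite sign, at 0.054, but its 2 counts are too few to give a direction. Counts of 3 or fewer limit prl2, gh1 and smtla, and 3 fish a group limit every comparison.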
